A study of Mus musculus with 12 samples.

Results

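Removal of Acly from cartilage cells was examined in rib chondrocytes of mouse embryos at E18.5, in 3 knockout and 3 control samples of the 12 samples in the series. Of the 17922 genes in the deposited table, 13973 had enough counts in these 6 samples to be tested. The knockout carried Col2-Cre, a recombinase expressed from the type II collagen promoter in cartilage cells, together with floxed Acly alleles. Its controls were littermates whose genotype beyond the word control, including whether they carried Col2-Cre or floxed alleles, is not given in the labels. Both groups came from a mixed strain in which C57BL/6 predominates, and both were treated alike: rib cartilage was digested with collagenase and the freed cells were kept in culture with serum for about a day before RNA was taken. Cells released by the digestion that never expressed Col2-Cre would keep Acly, and recombination by cell type was not measured. The labels do not say whether the samples of a group were separate embryos or pools, so the p-values below measure the spread between these samples, which may be technical in part. The other 6 samples, an LDH knockout and its controls at postnatal day 5, were used here only to ask where the Acly effect differed.

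ATP citrate lyase, the enzyme encoded by Acly, splits citrate exported from mitochondria into oxaloacetate and acetyl-CoA. In most cells this is a main source of the cytosolic and nuclear acetyl-CoA that feeds fatty acid synthesis, cholesterol synthesis and the acetylation of proteins such as histones. Chondrocytes at this stage proliferate, secrete a matrix of type II collagen and aggrecan, and then enlarge (hypertrophy), switch to type X collagen and are replaced by bone.

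Acly itself was lower in every knockout sample. In CPM, the usual unit of counts relative to the library total, here scaled by the TMM method, it measured 83.0, 52.5 and 87.0 in knockout samples 1, 2 and 3, against 197, 192 and 202 CPM in the controls. The groups did not overlap, and knockout sample 2 was the lowest. The mean was 74.2 ± 18.9 (SD, n = 3) against 197 ± 4.81 (SD, n = 3), 37.6% of the control level and a log2 fold change of -1.41 (standard error 0.17, adjusted p = 0.0313 by edgeR). An exact two-sided permutation test over the 6 samples gave p = 0.1, the smallest value that 3 against 3 samples allow. Transcript from the floxed allele outside the deleted part, and transcript from cells that did not undergo recombination, are counted alike in this value. Without either knockout sample 1 or 3, or without any of the controls, Acly no longer passed the threshold, with log2 values from -1.54 to -1.39 and adjusted p from 0.0603 to 0.233; without knockout sample 2 it passed at -1.21 (adjusted p = 0.000408). It also missed the threshold without scaling between samples (-1.45, adjusted p = 0.0564) and with a covariate for Y-linked transcripts (-1.39, adjusted p = 0.0692).

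Before the remaining results, the samples themselves need a description. Total expected counts lay between 26362407 and 26951820, so depth was even. Knockout sample 2 stood apart: on the first principal component, which held 49.4% of the variance, it scored 42.1 while the other 5 samples scored between -21.3 and 3.59. Its Pearson correlation with the other samples over genes was 0.975 to 0.984, against 0.987 to 0.994 among the others. No pair of samples matched within sampling noise. Y-linked transcripts, summed over 4 genes, were at 38.7 and 46.7 TPM (the share of all transcripts, scaled for gene length) in knockout samples 2 and 3 and 68.1 TPM in control 2, and at 0.06 to 1.57 TPM in the other 3 samples, so sex was mixed within both groups. Results are therefore given with and without knockout sample 2 where they rest on it.

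The cells carried the markers of cartilage. The 14 chondrocyte markers summed to 6569, 6551 and 7394 TPM in the knockout samples and 3868, 4623 and 3994 TPM in the controls, and Col2a1 made up most of each sum. Other cells were also present. The 13 tendon and fibroblast markers summed to 1754, 735 and 1644 TPM in the knockout samples against 2211, 2495 and 2414 TPM in the controls, without overlap. Dcn, Ly6a and Thbs4 made up most of each sum. Of the 12 tested, 11 had estimates below 0 and 4 were lower without overlap, beside 11.3% of all genes. The median log2 value was -0.37, and -0.08 without knockout sample 2. The tendon factor Scx overlapped, at 19.2, 39.2 and 28.8 TPM against 21.4, 23.1 and 27.6 TPM. Osteoblast and osteocyte markers (14) gave 860, 518 and 816 TPM against 967, 1098 and 1045 TPM, again without overlap of the sums. Of the 11 tested, 7 had estimates below 0, but 0 were without overlap (11.3% of all genes lower, 10.7% higher). Their median log2 value was -0.26, and -0.11 without knockout sample 2. Col1a1, the largest member of each sum, overlapped, at 372, 134 and 389 TPM against 362, 440 and 320 TPM. Skeletal muscle markers (24) gave 531, 270 and 644 TPM against 773, 624 and 676 TPM, with overlap. Knockout sample 2 was the lowest of the 6 in all of these other lists. Nerve and glia markers (11) summed to 71.5, 69.9 and 90.5 TPM against 62.7, 63.3 and 61.1 TPM, without overlap, but S100b, which chondrocytes also express, made up much of that sum. Without S100b, left out after the values were seen, the other 10 markers summed to 30.6, 34.0 and 42.0 TPM against 36.6, 34.3 and 33.0 TPM and overlapped. The sums for endothelium, leukocytes, osteoclasts, red blood cells, adipocytes and keratinocytes overlapped between the groups. Mesothelial markers were highest in knockout sample 3, at 67.3 TPM against 10.8 to 31.0 TPM in the other 5 samples. Of the defining markers, Myh4, Epb42, Calcr, Lep and Muc16 were below 0.05 TPM in these samples. In a bulk sample, fewer cells of a type and less RNA per cell cannot be told apart, and the part that this difference in makeup has in the results below was not tested.

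**Figure D1:**
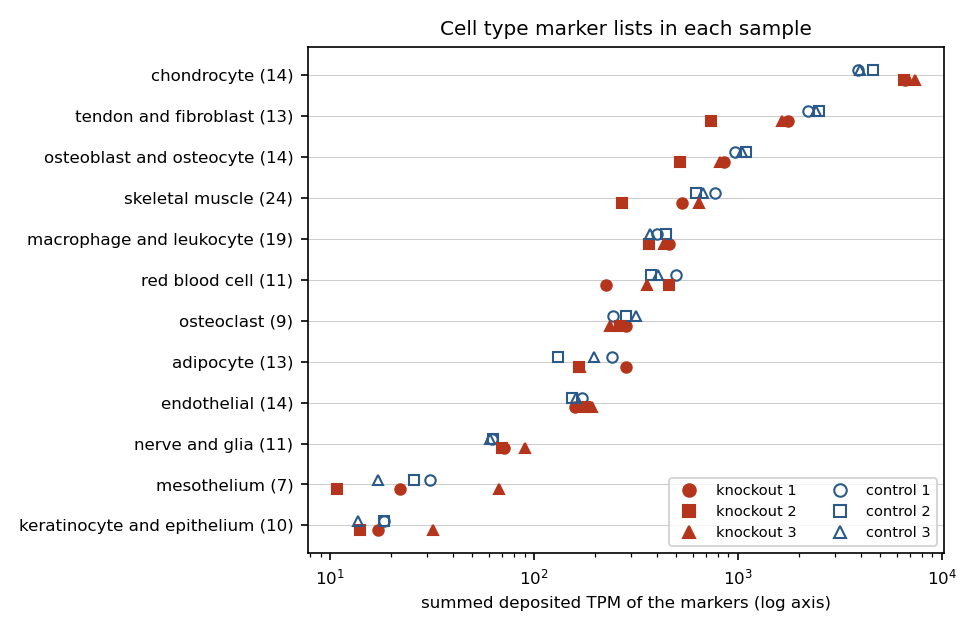
Summed deposited TPM (horizontal, log axis) of each cell type marker list (vertical, number of markers in parentheses), with 1 point for each of the 3 knockout samples (filled) and 3 controls (open). The chondrocyte sum lies higher in all knockout samples (6551 to 7394 TPM) than in all controls (3868 to 4623 TPM), and the tendon and fibroblast sum lies lower, most of all in knockout sample 2 (735 TPM).

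Col2a1, Col27a1, Col9a3, Col10a1 and Comp, which encode cartilage matrix proteins, were among the genes that rose in the knockout samples. Beside Acly, the genes that fell included Amer2, Rarres1, Met and Cxcl14. At an adjusted p under 0.05, 19 genes changed, which is 0.136% of those tested: 8 rose (0.0573%) and 11 fell, Acly among them (0.0787%). Without scaling between samples, 3 of the 19 passed as higher (0.0215%) and 8 as lower (0.0573%), and no further gene did. Of these 19, 11 changed at least 2-fold, 5 upward and 6 downward. None of the 19 overlapped between the groups, beside 22% of all tested genes whose values did not overlap (10.7% with all knockout values higher, 11.3% with all lower) and 15.8% with an unadjusted p under 0.05. Many more genes thus separated the groups in these 6 samples than passed the adjusted threshold.

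**Figure D2:**
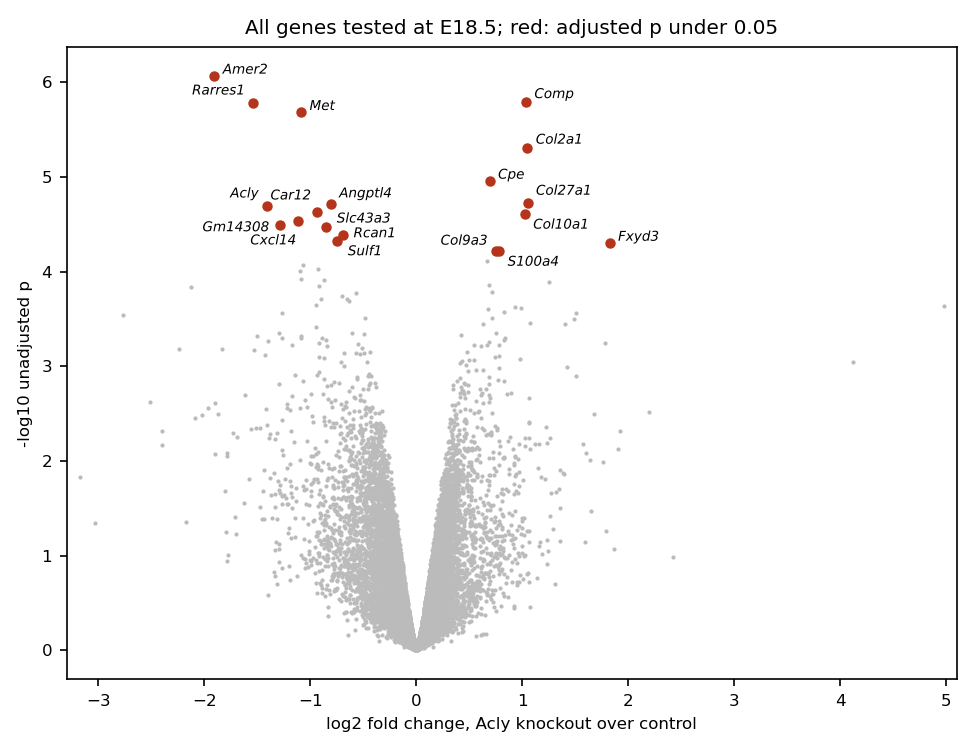
Log2 fold change of the knockout over control (horizontal) against -log10 of the unadjusted p (vertical) for the 13973 genes tested at E18.5, 1 point per gene. The 19 genes past an adjusted p of 0.05 are red and named, with 8 to the right and 11 to the left.

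Col2a1, the gene of type II collagen and the main structural collagen of cartilage, was by far the most abundant of the genes that rose. It measured 10517, 13032 and 12217 CPM in the knockout samples against 5576, 6103 and 5622 CPM in the controls. Every knockout sample lay well above every control, a 2.07-fold rise (log2 1.05, standard error 0.11, adjusted p = 0.0138 by edgeR). Per length, its level was 4059, 4360 and 4586 TPM in the knockout samples and 2097, 2466 and 2173 TPM in the controls. Col27a1, a fibrillar collagen of cartilage, rose alongside it, from 121, 126 and 120 CPM in the controls to 240, 216 and 304 CPM (log2 1.05, standard error 0.13, adjusted p = 0.0313). Its control samples were close together and its knockout samples more spread. Col9a3, a chain of the type IX collagen that coats type II fibrils, rose from 187, 215 and 232 CPM to 342, 383 and 339 CPM (log2 0.75, adjusted p = 0.0448). Col10a1, the collagen of hypertrophic chondrocytes, rose from 30.3, 26.8 and 23.3 CPM to 60.3, 55.7 and 47.5 CPM (log2 1.02, standard error 0.13, adjusted p = 0.0314).

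Comp, cartilage oligomeric matrix protein, which binds collagen fibrils, had nearly the same value in its 3 knockout samples. It measured 164, 162 and 163 CPM in the knockout samples against 87.7, 73.4 and 77.6 CPM in the controls (log2 1.03, standard error 0.09, adjusted p = 0.00722). The other genes that rose are not structural matrix components. Cpe, a carboxypeptidase that trims prohormones, rose from 160, 153 and 160 CPM to 254, 257 and 252 CPM (log2 0.69, adjusted p = 0.0256). S100a4, a calcium-binding protein of the S100 family, rose from 15.8, 17.8 and 16.2 CPM to 26.1, 29.2 and 30.4 CPM (log2 0.78, adjusted p = 0.0448). Fxyd3, a small membrane protein that associates with the sodium pump, rose from a low level, 1.75, 1.06 and 1.76 CPM, to 4.57, 5.45 and 6.20 CPM (log2 1.82, standard error 0.25, adjusted p = 0.0409). All of these levels lie above the 0.111 to 0.114 CPM to which 3 counts correspond.

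Amer2, a membrane-associated protein that recruits APC and restrains Wnt signaling, had the largest fall of the 19. It measured 4.50, 5.53 and 5.60 CPM in the knockout samples against 20.6, 16.6 and 21.3 CPM in the controls, 26.7% of the control mean (log2 -1.91, standard error 0.16, adjusted p = 0.00722). Rarres1, a retinoic acid responsive membrane protein, fell from 19.7, 20.3 and 22.1 CPM to 7.13, 8.01 and 6.20 CPM (log2 -1.54, standard error 0.14, adjusted p = 0.00722). Met, the receptor tyrosine kinase for hepatocyte growth factor, fell from 65.5, 68.5 and 70.6 CPM to 34.0, 28.2 and 34.1 CPM (log2 -1.09, standard error 0.10, adjusted p = 0.00722). For all 3 genes the gap between the groups was wide against the spread within them.

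Secreted proteins were also among the genes that fell. Cxcl14, a chemokine, was at 21.0, 15.7 and 15.6 CPM against 37.4, 34.1 and 41.9 CPM (log2 -1.11, adjusted p = 0.0335). Angptl4, an inhibitor of lipoprotein lipase, was at 82.2, 85.5 and 89.3 CPM against 158, 133 and 159 CPM (log2 -0.81, adjusted p = 0.0313). Sulf1, an extracellular enzyme that removes sulfate from heparan sulfate, was at 57.2, 49.6 and 55.3 CPM against 83.0, 99.8 and 89.1 CPM (log2 -0.75, adjusted p = 0.0409). The knockout samples lay below the controls in each case, by 1.68-fold to 2.16-fold of the means.

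The remaining genes that fell act at the membrane or inside the cell. Car12, a membrane-bound carbonic anhydrase, fell to 13.9, 15.2 and 16.9 CPM from 27.2, 29.7 and 31.2 CPM (log2 -0.93, adjusted p = 0.0314). Slc43a3, a transporter of purine bases, fell to 99.5, 131 and 120 CPM from 210, 207 and 216 CPM (log2 -0.85, adjusted p = 0.0335). Rcan1, a regulator of the phosphatase calcineurin, fell to 44.1, 44.5 and 47.8 CPM from 71.1, 68.8 and 80.4 CPM (log2 -0.69, adjusted p = 0.0384). Gm14308, a predicted zinc finger gene with near-identical copies, fell by 1.29 on the log2 scale (adjusted p = 0.0335) and is uncertain, since how reads were divided among the copies is not given.

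**Figure D3:**
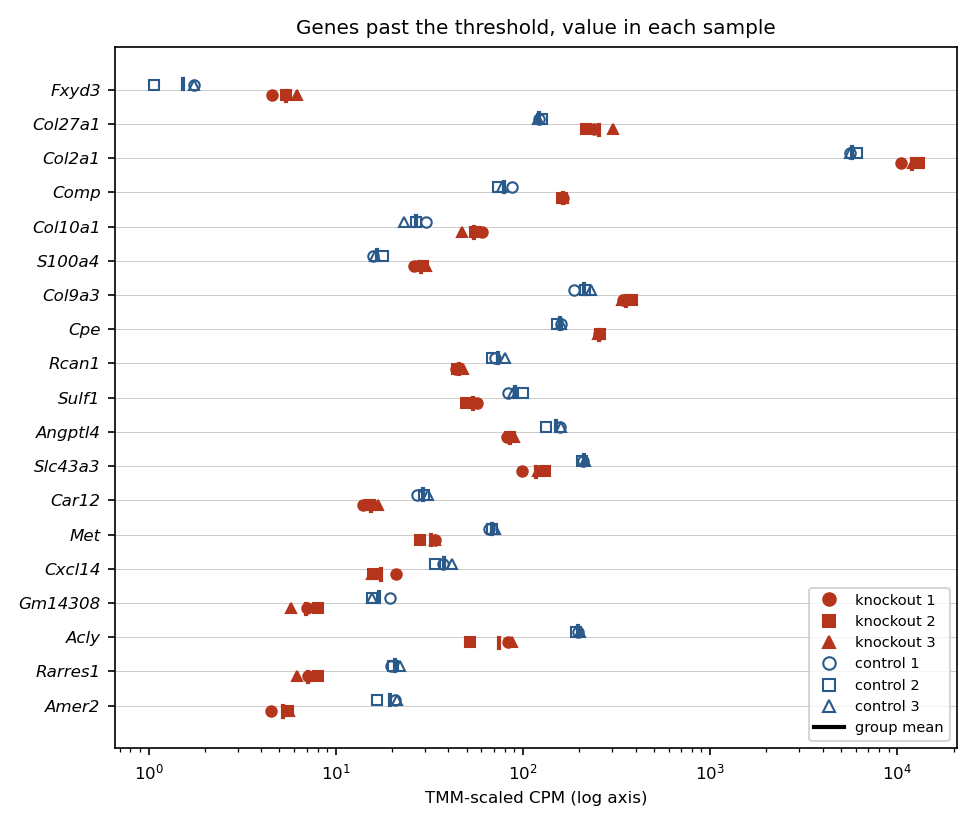
TMM-scaled CPM (horizontal, log axis) of the 19 genes that passed the threshold, in each knockout sample (filled) and control sample (open), with short vertical lines at the group means. For every gene the 3 knockout points and the 3 control points do not overlap, from Amer2 (4.50 to 5.60 against 16.6 to 21.3 CPM) to Col2a1 (10517 to 13032 against 5576 to 6103 CPM).

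All 19 genes remained past the threshold when knockout sample 2 was left out, and 132 genes then passed (0.933% of those tested), 56 higher (0.396%) and 76 lower (0.537%). Leaving out any other sample reduced the count to between 0 and 6: without control 1 or control 3 no gene passed by edgeR (2323 and 1008 genes at an unadjusted p under 0.05; DESeq2 on all 6 samples called 249, which is 1.85% of the genes it tested), without control 2 Amer2 alone passed, and without knockout sample 1 or 3 there were 6, as there were with a covariate for Y-linked transcripts.

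A further 443 genes had an unadjusted p under 0.01, a mean of at least 5 CPM and no overlap, but did not pass the adjusted threshold. The largest differences among them are given as values. On the higher side stood Smpd3, a sphingomyelinase needed for mineralization of cartilage and bone, at 59.7, 28.1 and 45.7 CPM against 18.8, 15.9 and 12.5 CPM (log2 1.50, adjusted p = 0.0894), and Matn4, a matrilin of cartilage matrix, at 12.8, 8.37 and 12.3 CPM against 4.99, 4.88 and 4.19 CPM (log2 1.25, adjusted p = 0.0694). Without knockout sample 2, Smpd3 and Matn4 passed, at adjusted p of 0.000509 and 0.00163 by edgeR. Without any other single sample both missed the threshold, at adjusted p of 0.130 to 0.426 for Smpd3 and 0.130 to 0.370 for Matn4. Knockout sample 2 was set apart from these same data, so a pass without it, here and below, adds no independent support. The others on this side were Plac9b (log2 1.07, with a near-identical copy and therefore uncertain), the glutathione transferase Gsta4 (1.07), the actin-bundling Espn (1.03), the lipid droplet protein Plin4 (0.99), the transcription factor Tbx5 (0.98) and the small cartilage proteoglycan Chadl (0.93). On the lower side Mmp3, the protease stromelysin, showed the largest difference, at 11.2, 32.4 and 9.78 CPM against 57.8, 80.4 and 112.7 CPM (log2 -2.24, adjusted p = 0.119). Here knockout sample 2 lay closest to the controls, and without it Mmp3 passed at an adjusted p of 0.000475. Il33, an alarmin cytokine, had a log2 value of -1.56, with knockout sample 2 the lowest at 3.51 CPM and the other knockout samples at 16.1 and 13.1 CPM against 30.9 to 32.9 CPM in the controls. The others were the adhesion molecule Ceacam1 (-1.50), Plet1 (-1.40), Hhipl2 (-1.30), the keratin Krt13 (-1.30), the acyl-CoA thioesterase Acot5 (-1.27) and Hpgd, which inactivates prostaglandins (-1.26).

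The genes around this reaction had estimates near those of all genes tested. Of the other enzymes and carriers that supply, use or convert citrate and acetyl-CoA, no gene passed: in a list of 25 tested genes that includes Acly, 13 estimates were above 0 and 12 below, with a median log2 value of 0.01, beside a median of -0.0018 and 49.7% of estimates above 0 over all genes tested. The lowest p among the others belonged to Mdh2, the mitochondrial malate dehydrogenase (log2 0.30, adjusted p = 0.257), and Slc33a1, the acetyl-CoA transporter of the endoplasmic reticulum (log2 -0.29, adjusted p = 0.298). Fatty acid and triglyceride synthesis, the pathway that takes up the product, had no called gene among 26, with a median of 0.04. Elovl7, a fatty acid elongase, gave the lowest p there (log2 -1.05, 5.35, 5.21 and 3.25 CPM against 7.41, 12.2 and 9.06 CPM, adjusted p = 0.187), and DESeq2 called it. The 26 genes of cholesterol synthesis and uptake had 12 estimates above and 14 below 0, a median of -0.0022 and no called gene by edgeR or DESeq2. Mvk, mevalonate kinase, stood at log2 0.47 and Idi1, an isomerase later in the same pathway, at -0.72 (adjusted p = 0.222 and 0.232). Enzymes that add, remove or read histone acetylation gave 20 estimates above and 10 below 0 among 30 genes, with a median of 0.06 and no called gene by either tool. Ep300, an acetyltransferase, had the largest difference named there (log2 -0.42), and its lowest sample was knockout sample 2 at 58.0 CPM.

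**Figure D4:**
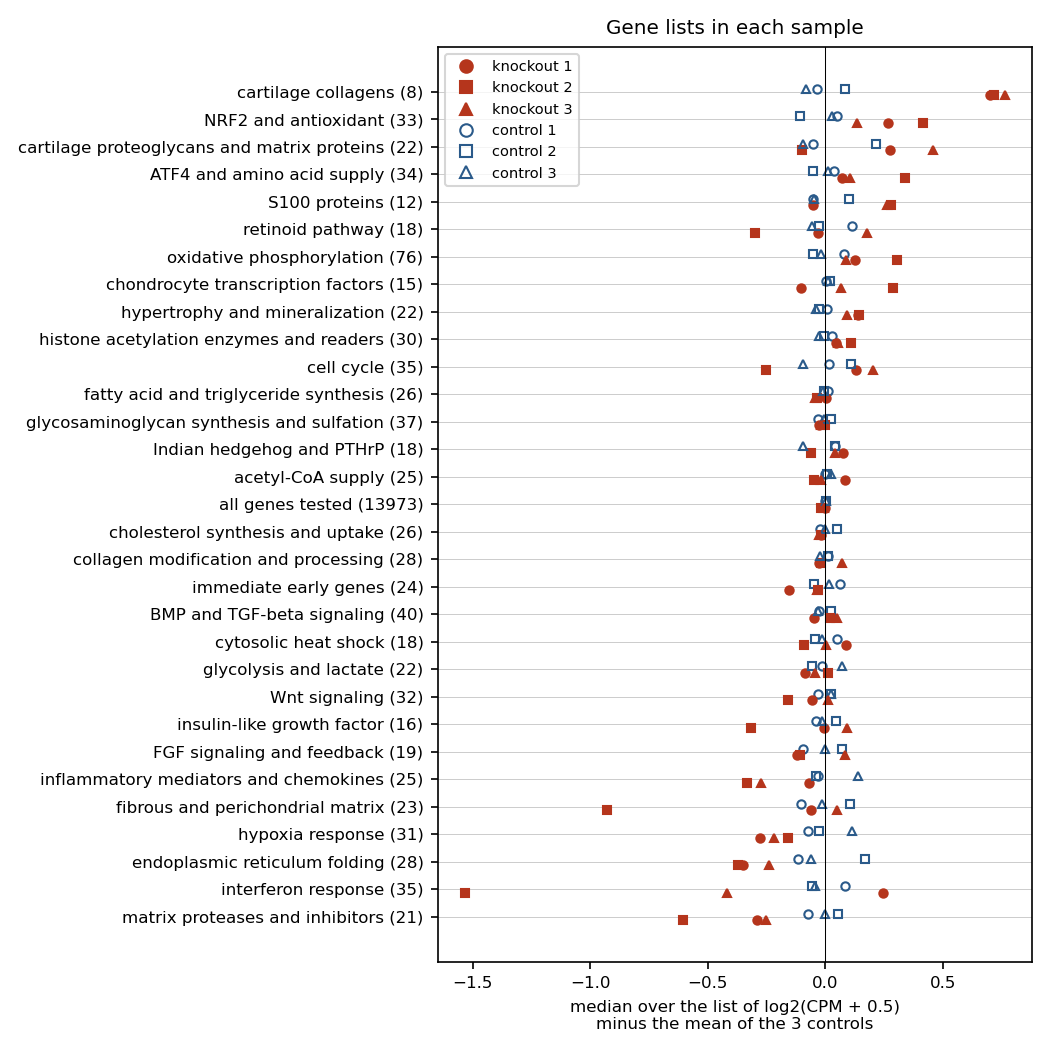
For each gene list (vertical, number of tested genes in parentheses), the median over its genes of log2(CPM + 0.5) minus the mean of the 3 controls (horizontal), 1 point per sample, knockout filled and control open. Cartilage collagens lie at 0.70 to 0.76 in the knockout samples, endoplasmic reticulum folding at -0.37 to -0.24, and the interferon response spreads from -1.53 to 0.25 within the knockout group.

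All 8 collagens of cartilage had estimates above 0. Of these, 6 did not overlap, beside 10.7% of all genes with all knockout values higher, and 4 rose (Col2a1, Col27a1, Col10a1, Col9a3), beside 0.0573% of all genes. The median log2 value was 0.77. The list median was 0.70, 0.72 and 0.76 above the control mean in the 3 knockout samples, and the median estimate without knockout sample 2 was 0.80. Of the 4 that did not pass, Col9a2 (245.8, 232 and 247.6 CPM against 149, 169 and 138 CPM, log2 0.67, adjusted p = 0.0536) and Col11a2 (726, 665 and 955 CPM against 449, 515 and 401 CPM, log2 0.78, adjusted p = 0.114) did not overlap and passed without knockout sample 2; they are named here after their values were seen. The remaining collagens overlapped, and knockout sample 2 was well below the other knockout samples in both: Col9a1 was at 368, 219 and 424 CPM against 235, 352 and 218 CPM, and Col11a1 at 1535, 1088 and 1449 CPM against 1036, 1203 and 1175 CPM. Proteoglycans and other matrix proteins were less uniform: of 22, Comp rose, 14 estimates were above and 8 below 0, and the median was 0.26. Without overlap, 4 were higher (10.7% of all genes) and 3 lower (11.3% of all genes). The list median was 0.27, -0.10 and 0.46 in the knockout samples and between -0.10 and 0.22 in the controls. Without knockout sample 2 the median estimate was 0.39. Acan, the core protein of aggrecan, was at 1410, 1788 and 1871 CPM against 1105, 1129 and 1200 CPM (log2 0.56, standard error 0.12, adjusted p = 0.148), with no overlap. The sum of the tendon and fibroblast markers, lower in the knockout samples, stands beside these values, and its part in them was not tested.

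Chondrocyte transcription factors had 9 estimates above and 6 below 0 among 15, with no gene called by edgeR and 1 called higher by DESeq2 (0.789% of all genes). Sox8 (log2 0.61) and Foxc1 (0.26) were higher without overlap and Sox5 (-0.28) lower without overlap, with adjusted p from 0.180 to 0.265. Genes of hypertrophy and mineralization lay on both sides. Col10a1 rose, and 12 of 22 estimates were above 0, with a median of 0.07. Without overlap, 8 were higher (10.7% of all genes) and 3 lower (11.3% of all genes). DESeq2 called 5 higher (0.789% of all genes) and 2 lower (1.07% of all genes). Mmp13, a collagenase made by late hypertrophic chondrocytes and osteoblasts, went the other way from Col10a1, at 75.4, 54.0 and 57.0 CPM against 105, 137 and 153 CPM (log2 -1.09, standard error 0.17, adjusted p = 0.0694); it passed without knockout sample 2 (adjusted p = 0.0186). Ihh, the hedgehog ligand of prehypertrophic chondrocytes, was at 6.17, 4.70 and 5.64 CPM against 2.79, 1.91 and 1.54 CPM (log2 1.40, standard error 0.25, adjusted p = 0.101) and passed without knockout sample 2 (adjusted p = 0.0186). Fgfr3, the receptor that restrains chondrocyte proliferation, was at 191, 269 and 203 CPM against 135, 143 and 158 CPM (log2 0.60, adjusted p = 0.172).

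Matrix proteases and their inhibitors lay on the lower side. Of 21 genes, 18 had estimates below 0, 9 of them without overlap, beside 11.3% of all genes. None passed by edgeR and 3 were called lower by DESeq2, beside 1.07% of all genes, and the median was -0.46. The list median was -0.29, -0.61 and -0.25 in the knockout samples, lowest in sample 2, and the median estimate without that sample was -0.26. Mmp3, Mmp13 and Adamts1 (log2 -0.46, adjusted p = 0.159) had the lowest p. In the matrix of fibrous tissue and perichondrium, 15 of 23 estimates were below 0 with a median of -0.19, but the list median was -0.93 in knockout sample 2 and -0.06 and 0.05 in the others, and the median estimate without it was 0.01. Dcn, the proteoglycan decorin of fibrous tissue, was below every control in every knockout sample, at 495, 284 and 511 CPM against 707, 825 and 851 CPM (log2 -0.88, adjusted p = 0.179). Pcolce2, an enhancer of procollagen cleavage, was at 41.2, 52.5 and 50.9 CPM against 29.6, 31.0 and 33.1 CPM (log2 0.63, adjusted p = 0.101); the 28 collagen-modifying genes as a whole had a median of -0.0032.

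The chaperones and folding enzymes of the endoplasmic reticulum had lower values as a list in all 3 knockout samples. This compartment folds secreted proteins such as collagens, and its chaperones are known to be induced through ER stress response elements in their promoters when unfolded protein accumulates. Of 28 folding genes, 27 had estimates below 0 and 15 did not overlap (11.3% of all genes), with a median of -0.33; none passed the threshold. The list median was -0.35, -0.37 and -0.24 in the knockout samples and between -0.11 and 0.17 in the controls. Without knockout sample 2 the median estimate was -0.31 and 5 of the 28 passed as lower, beside 0.537% of all genes, and DESeq2 on all samples called 8 as lower, beside 1.07% of all genes. Hsp90b1, the endoplasmic reticulum form of the HSP90 chaperone, was at 776, 712 and 905 CPM against 1224, 1639 and 1516 CPM (log2 -0.87, standard error 0.14, adjusted p = 0.0694 by edgeR). Hspa5, the chaperone BiP, was at 1290, 1356 and 1294 CPM against 1800, 2101 and 1964 CPM (log2 -0.57, standard error 0.09, adjusted p = 0.0764). Sdf2l1, a partner of BiP, was at 10.4, 13.9 and 13.96 CPM against 20.4, 27.0 and 21.2 CPM (log2 -0.84, adjusted p = 0.114). All 3 lay below every control in every knockout sample, and all 3 passed without knockout sample 2.

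The ER stress response element was searched as CCAAT, then any 9 bases, then CCACG, on both strands in the 250 bases before the RefSeq start sites of assembly GRCm38.p6. It was present in 18 of 11050 tested genes with a promoter in the table (0.163%) and in 9 of the 23 folding genes with one (39.1%). Since chaperone promoters are known to carry this element, that share describes the list and says nothing about the knockout. The matches in the 7 folding genes whose knockout and control values did not overlap are printed below with 10 bases on each side, because these are the genes that share both the element and the lower level; they were chosen after their values were seen. Each reads 5′ to 3′ on the strand of its gene, and capitals mark the matched element, which begins with CCAAT where it lies as written and with CGTGG where it lies reversed.
Hspa5, chr2:34772015-34772053, plus strand: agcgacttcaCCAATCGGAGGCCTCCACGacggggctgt
Hsp90b1, chr10:86705628-86705666, minus strand: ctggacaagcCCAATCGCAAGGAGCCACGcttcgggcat
Hsp90b1, chr10:86705523-86705561, minus strand: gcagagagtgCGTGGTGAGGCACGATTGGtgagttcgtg
Dnajc3, chr14:118937817-118937855, plus strand: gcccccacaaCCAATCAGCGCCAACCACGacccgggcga
Canx, chr11:50325790-50325828, minus strand: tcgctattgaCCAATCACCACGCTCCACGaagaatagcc
Pdia6, chr12:17266481-17266519, plus strand: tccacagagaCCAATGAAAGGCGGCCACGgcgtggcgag
Derl3, chr10:75893232-75893270, plus strand: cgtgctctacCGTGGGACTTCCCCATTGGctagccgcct
Creld2, chr15:88819510-88819548, plus strand: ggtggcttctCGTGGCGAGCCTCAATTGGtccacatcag

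All 9 folding genes with the element had estimates below 0, with a median of -0.56, while the 19 folding genes without a match, or without a promoter in the table, had 18 below 0, 8 without overlap, and a median of -0.29. Derl3, which helps export misfolded proteins, was at 13.9, 26.1 and 40.7 CPM against 52.9, 75.6 and 51.8 CPM (log2 -1.16). Dnajc3, a cochaperone of BiP, was at 109.7, 89.2 and 119 CPM against 139.8, 216 and 158 CPM (log2 -0.69). Creld2 (log2 -0.56), the lectin chaperone Canx (-0.39) and the disulfide isomerase Pdia6 (-0.34) also lay below every control. Calr (-0.18) and Syvn1 (-0.11) carried the element and overlapped. Outside the folding list, the 9 other genes with a match had 6 estimates below 0, 1 without overlap on each side, and a median of -0.13. These matches describe letters in a window and no binding was measured. The difference between the medians with and without a match was not tested.

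**Figure D5:**
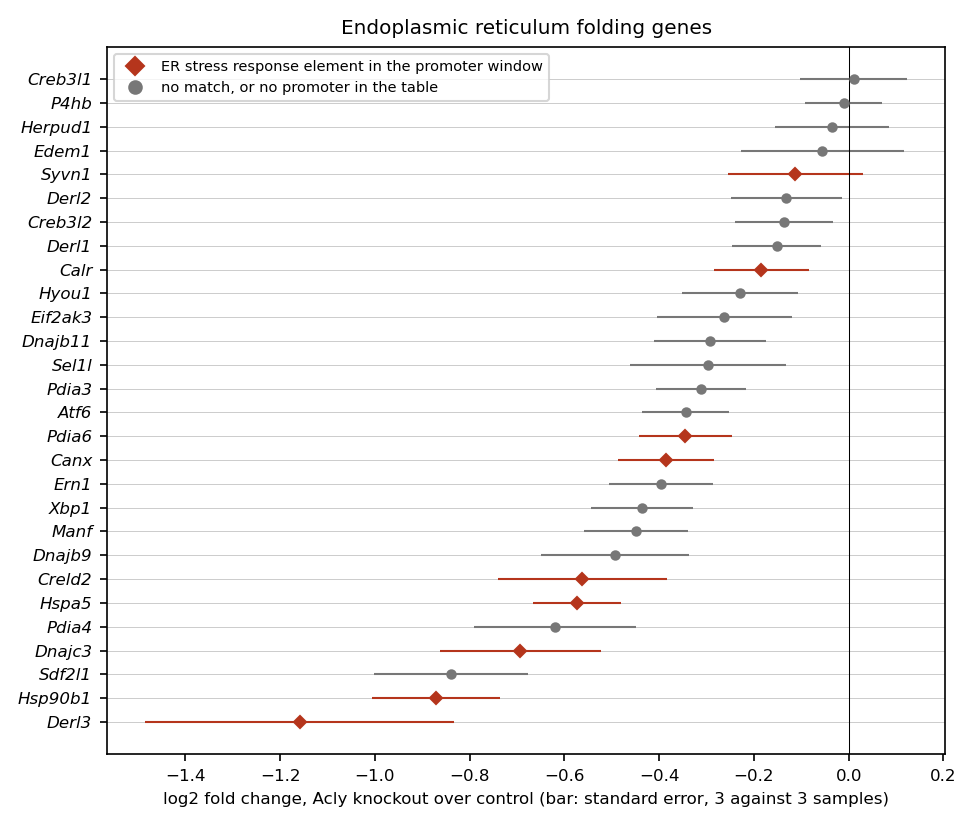
Log2 fold change of the knockout over control (horizontal) with its standard error (bar, 3 against 3 samples) for the 28 endoplasmic reticulum folding genes (vertical); red diamonds mark the 9 with an ER stress response element in the promoter window. All but Creb3l1 lie below 0, and Derl3, Hsp90b1, Sdf2l1, Dnajc3, Pdia4 and Hspa5 lie lowest.

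Genes of the hypoxia response, which the HIF transcription factors induce at low oxygen, were also mostly lower. Car12 fell, 24 of 31 estimates were below 0, 14 did not overlap on the lower side (11.3% of all genes) and 3 on the higher (10.7% of all genes), and the median was -0.25 (-0.30 without knockout sample 2). Bnip3l, a mitophagy receptor, was at 71.9, 70.7 and 70.4 CPM against 90.6, 105 and 118 CPM (log2 -0.56, adjusted p = 0.114), and Aldoc, an aldolase, was at log2 -0.83 (adjusted p = 0.187). The core of the hypoxia response element (ACGTG or GCGTG, both strands) was present in 24 of the 28 hypoxia genes with a promoter in the table (85.7%) and in 60.0% of all tested genes with one. Since the list was written from genes that HIF factors induce, that share describes the list and says nothing about the knockout. Glycolysis and lactate handling had 10 estimates above and 12 below 0 among 22 genes, with a median of -0.04. Slc16a3, the lactate exporter MCT4, lay lowest there at 24.7, 27.7 and 33.3 CPM against 51.2, 56.6 and 75.6 CPM (log2 -1.10, standard error 0.16, adjusted p = 0.0592) and passed without knockout sample 2 (adjusted p = 0.0173).

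On the higher side, genes of the NRF2 antioxidant response had 31 of 33 estimates above 0 and 16 higher without overlap (10.7% of all genes), against 1 lower (11.3%), with a median of 0.27; none passed. The list median was 0.26, 0.42 and 0.14 in the knockout samples, highest in sample 2, and the median estimate without it was 0.19, with 3 genes then past the threshold as higher, beside 0.396% of all genes; DESeq2 on all samples called 9 as higher, beside 0.789% of all genes. Nqo1, a quinone reductase, was at 126, 159 and 118 CPM against 87.6, 76.6 and 90.2 CPM (log2 0.66, standard error 0.13, adjusted p = 0.114). Gsta4 was at 17.6, 15.1 and 16.8 CPM against 10.2, 7.002 and 6.29 CPM (adjusted p = 0.101), and Osgin1, an oxidative stress response gene, at log2 0.68 (adjusted p = 0.114). The antioxidant response element core (TGACNNNGC, both strands) was present in 6 of 27 of these genes with a promoter (22.2%), against 13.9% of all. This share too describes the list and says nothing about the knockout. Subunits of oxidative phosphorylation had 71 of 76 estimates above 0 and 24 without overlap (10.7% of all genes), but small ones, with a median of 0.16 (0.10 without knockout sample 2) and no gene called by edgeR against 1 called higher by DESeq2 (0.789% of all genes). Uqcr11, a subunit of complex III, had the lowest p (log2 0.47, adjusted p = 0.219). Genes of the ATF4 program and amino acid supply had 27 of 34 estimates above 0 with a median of 0.20, which was 0.08 without knockout sample 2, and no gene was called by either tool. Nupr1 (log2 0.39), Psph (0.35) and Phgdh (0.30) had the lowest p there, with adjusted p of 0.232 to 0.254.

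Interferon response genes depended on 1 sample. Of 35, 34 estimates were below 0 with a median of -0.39, but only 1 was lower without overlap, beside 11.3% of all genes. The list median was 0.25, -1.53 and -0.42 in knockout samples 1, 2 and 3. Without knockout sample 2 the median estimate was -0.04 and edgeR called no gene. On all samples, neither edgeR nor DESeq2 called a gene of this list. Gbp7, a guanylate-binding protein, was at 15.6, 1.93 and 7.73 CPM against 15.1, 19.1 and 14.6 CPM. Cxcl10, an interferon-induced chemokine, was at 18.6, 4.78 and 7.43 CPM against 29.0, 23.9 and 20.1 CPM (log2 -1.24, adjusted p = 0.259). Among 25 inflammatory mediators, Cxcl14 fell, 18 estimates were below 0, and the median was -0.08. Cxcl2, a neutrophil chemokine, was at log2 -1.10 (adjusted p = 0.245).

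Among 32 Wnt genes Amer2 fell, 20 estimates were below 0, and the median was -0.04. Sfrp4, a secreted Wnt inhibitor, was at 7.17, 6.71 and 6.98 CPM against 11.7, 13.5 and 14.4 CPM (log2 -0.93, adjusted p = 0.0592). Wisp2, a secreted matricellular protein, was at 6.65, 7.70 and 6.42 CPM against 13.9, 11.7 and 13.6 CPM (log2 -0.92, adjusted p = 0.0694). Both were below every control and passed without knockout sample 2. In the retinoid pathway Rarres1 fell, and 10 of 18 estimates were above 0 with a median of 0.18 (0.03 without knockout sample 2). Rbp4, the retinol carrier, was at 40.9, 31.6 and 28.6 CPM against 22.6, 21.6 and 18.8 CPM (log2 0.68, adjusted p = 0.159), and Crabp2, a retinoic acid binding protein, at log2 -0.60 (adjusted p = 0.216).

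Hedgehog and PTHrP genes (18, median 0.01), FGF genes (19, median -0.05), BMP and TGF-beta genes (40, median -0.02) and insulin-like growth factor genes (16, median -0.04) had no member called by edgeR, and DESeq2 called 2, 1, 1 and 0 of them in that order, beside 1.85% of all genes. Bmp4, a ligand, was at 16.7, 19.7 and 20.4 CPM against 31.0, 26.5 and 26.4 CPM (log2 -0.56, adjusted p = 0.159). Igf1r, the IGF1 receptor, was at log2 -0.34 (adjusted p = 0.222). Among 12 S100 genes S100a4 rose, and S100b, a marker of chondrocytes and glia, was at 34.6, 35.0 and 42.2 CPM against 22.6, 23.4 and 23.7 CPM (log2 0.68, standard error 0.11, adjusted p = 0.0694). Cell cycle genes had 20 of 35 estimates above 0 with a median of 0.04; the list median was 0.13, -0.25 and 0.20 in the knockout samples, and the median estimate without sample 2 was 0.17. E2f1, a driver of S phase entry, was at 51.2, 45.1 and 49.5 CPM against 38.9, 34.5 and 30.8 CPM (log2 0.49, adjusted p = 0.168). Immediate early genes (24, median -0.02), cytosolic heat shock genes (18, median -0.03) and genes of glycosaminoglycan synthesis and sulfation (37, median 0.02) had no member called by either tool.

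The 100 tested genes nearest to Acly on its chromosome contained no called gene by edgeR (0.136% of all genes) and 2 by DESeq2 (1.85% of all genes). Of these 100, 12 had an unadjusted p under 0.05 (15.8% of all genes). Without overlap, 13 were higher (10.7% of all genes) and 5 lower (11.3% of all genes).

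Whether the Acly effect differed from that of the LDH knockout of the same series was tested in a fit of all 12 samples. The sets share no sample, but the deleted gene and the age differ together and cannot be told apart. The effects differed for 23 of 14251 genes (0.161%). Acly (difference -1.25 on the log2 scale, adjusted p = 0.0411) and Met (difference -1.09, adjusted p = 0.0329) were the only ones of the 19 genes among them. Met fell in the Acly knockout and was at log2 -0.01 in the LDH knockout. For the other 17 the difference did not pass the threshold, which does not show that their effects were alike. The log2 values of each knockout come from a separate fit of its own set, so they need not subtract exactly to the difference. Amer2 had log2 values of -1.91 and -0.08 in the Acly and LDH knockouts (difference -1.85, adjusted p = 0.0946 by the interaction test of edgeR). Col27a1 had 1.05 and 2.60 (difference -1.57, adjusted p = 0.0971), and Car12 had -0.93 and -0.20 (difference -0.75, adjusted p = 0.0580). Others of the 17 had nearly equal values. Col2a1 had log2 values of 1.05 and 1.02 in the Acly and LDH knockouts, and the difference between them was 0.01 (adjusted p = 0.985). Rarres1 had values of -1.54 and -1.63 (difference 0.08, adjusted p = 0.872).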

How the data were processed

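RNA-seq of 3 Acly knockout and 3 control samples was taken from the table the authors deposited, which holds an expected count, an FPKM and a TPM value for each gene and sample, per the file headers. Between 7.32% and 8.16% of the deposited counts of a sample are not whole, so they were handled like estimated (expected) counts and rounded. The deposited FPKM values served an alternative test and the deposited TPM values gave levels between genes and marker sums. HISAT2 2.0.4 and mm9 are named in the submitters' processing notes with no role; the counting program and use of strand are not given in the sources used here. Overlapping and near-identical genes are therefore uncertain. Entrez identifiers matched RefSeq (GRCm38.p6) for 17814 of 17922 genes, and 26 symbols that had become dates were restored.

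Counts were tested with edgeR 4.0.16 in R 4.3.3 (TMM scaling, filterByExpr, two-sided quasi-likelihood F test, Benjamini-Hochberg adjustment over all genes tested, threshold 0.05), checked on simulated counts. The standard error is the log2 fold change divided by the square root of F. Total counts of 26362407 to 26951820 put 3 counts, the floor used, at 0.111 to 0.114 CPM, for counting error only. Alternatives were DESeq2 1.42.0, limma 3.58.1 on log2(FPKM + 1), other scalings and filters, a replicate block, a Y-linked covariate, leaving out each sample, and a fit of all 12 samples. The 43 gene lists and the comparison were chosen with earlier results of these data known, so lists are described by counts and medians and not tested. Named genes are Acly, all genes past the threshold, the 8 largest differences in each direction among those not past it (unadjusted p under 0.01, mean of at least 5 CPM, no overlap), and up to 3 genes of lowest p in each list; genes named beyond this rule are marked in the text. Promoters are RefSeq sequences of GRCm38.p6, and no coordinate of the authors' build was used.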

Additional observations from a re-analysis of the deposited data

Results flagged for a closer look

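The effect of the Acly knockout at E18.5 differed from that of the LDH knockout at postnatal day 5 for 23 genes by the interaction test of edgeR, and 6 of the genes named by rule were among them. Acly differed by -1.25 and Met by -1.09 on the log2 scale. Plet1 differed by -2.62 (adjusted p = 0.0233), with log2 values of -1.40 in the Acly knockout and 1.21 in the LDH knockout. Nqo1 differed by 1.02 (adjusted p = 0.0411), with 0.66 and -0.37. Hspb8, a small heat shock protein, differed by 1.19 (adjusted p = 0.0276), with 0.23 and -0.98. Plin1, a lipid droplet protein of adipocytes, differed by -4.10 (adjusted p = 0.0440), with 0.75 and 4.84. Age and deleted gene differ together between the sets and cannot be told apart.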

How the results depend on the processing

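The 19 genes of the Acly comparison became 249 with DESeq2, 32 without a filter, 31 in the fit of all 12 samples (4 higher, 27 lower; 11 shared), 11 without scaling (3 higher, 8 lower), 8 with a replicate block and 6 with a Y-linked covariate. Leaving out 1 sample gave 0 to 132, the highest without knockout sample 2. The 23 genes with different effects became 217 with DESeq2, 5 with a replicate block and 6 with a Y-linked covariate, and 5 to 143 without 1 sample, the highest without LDH knockout sample 3. Acly lost its call without scaling (-1.45) and with the Y-linked covariate (-1.39), and ranged from -1.54 to -1.21 without 1 sample. Each of the 19 genes kept its sign in every alternative that gave a value. Among named genes not past the threshold, 3 changed sign without 1 sample: Hba-a1 (-0.44 to 0.079, positive without knockout sample 1), Acp5 (-0.48 to 0.00094, positive without control 3) and Krt14 (-0.39 to 1.28, negative without knockout sample 3). The cause was not tested. Same-numbered samples did not deviate together (r of -0.10, -0.29 and -0.29), no sample correlated best with its own number, and the block does not stand for a known pairing. With 3 samples a group, differences of small size were not detectable.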
